A study of Mus musculus with 20 samples.

Results

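The genes described here encode the enzymes that build triglyceride, the storage fat of the liver, from glycerol-3-phosphate or monoacylglycerol and fatty acyl-CoA. They are Gpam, Agpat1, Agpat2, Agpat3, Lpin1, Lpin2, Lpin3, Dgat1, Dgat2 and Mogat1, chosen by symbol as 10 of the 19505 genes on the array. Each had 1 probe set. Liver RNA came from 20 male ob/ob mice, which carry no working leptin, overeat and store fat in the liver, and every group shared this genotype. There were 4 groups of 5 mice, 1 array per mouse: PM2.5 with metformin (called the combined group), PM2.5, metformin, and filtered air. PM2.5 is airborne particulate matter of up to 2.5 micrometres, which the exposed mice breathed in a chamber 6 hours daily over 2 weeks. Metformin, a glucose-lowering drug, was given in the drinking water at a dose set by body weight, and no air is named for the mice given metformin alone. The labels carry the same chamber protocol for every group, and the age of the mice is not given in the sources used here. Mice are numbered 1 to 5 within a group, and equal numbers do not link mice.

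Triglyceride is made in steps on the endoplasmic reticulum. A glycerol-3-phosphate acyltransferase adds the first acyl chain to give lysophosphatidic acid, an AGPAT enzyme adds the next to give phosphatidic acid, and a lipin removes the phosphate to give diacylglycerol. A DGAT enzyme adds the last chain, and in a side route a MOGAT enzyme makes diacylglycerol straight from monoacylglycerol. In the liver the product fills lipid droplets or leaves the cell in very-low-density lipoprotein.

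Values are log2 signals as deposited, so a difference of 1 is a doubling, and levels of different probe sets cannot be set against each other. The words rose and fell are kept for differences with a Benjamini-Hochberg adjusted p under 0.05 in limma, taken over all 11844 genes tested. Errors of differences are standard errors. Negative-control probe sets, which match no mouse transcript, had a mean median of 4.49 and a mean 95th percentile of 8.36. Gpam, Agpat2, Agpat3, Lpin1, Lpin2 and Dgat2 exceeded the 95th percentile of their own array's negative controls in all 20 mice, Mogat1 in 17, Agpat1 in 13 and Dgat1 in 0. Lpin3 was at or below the negative-control median in all 20 mice and was left out of the tests as dim, so 9 of the 10 genes were tested. All 8 hepatocyte markers lay above background, and their summed log2 signal was 21.04 to 21.14 in the combined group, 21.07 to 21.13 under PM2.5, 21.04 to 21.16 under metformin and 21.04 to 21.09 in filtered air. Against filtered air, 2 of the 8 rose in the combined group, where 34.9% of all genes passed, and 0 passed under PM2.5 or metformin. Adipoq, Plin1 and Slc2a4, which mark adipocytes, were at background, and the sum of 6 adipocyte markers was 8.18 to 11.28 in the combined group, 9.61 to 11.89 under PM2.5, 9.18 to 12.76 under metformin and 9.07 to 10.98 in filtered air. Of those 6 markers, Cidec alone (mean 9.9) had a mean above the mean 95th percentile of negative controls, so the sum rests mainly on Cidec. All 5 lymphocyte markers were at background. In whole liver, fewer cells of a type and less RNA per cell cannot be told apart. The tests set group differences against the spread between mice of the same group. The labels do not say how the mice of a group were housed, so an effect of a shared chamber or cage cannot be told apart from treatment.

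In the combined group, mice 2, 4 and 5 stood apart. Mouse 5 had the lowest median correlation with its own group of all 20 arrays (0.9822), and limma's array weights were 0.49, 0.56 and 0.49 for mice 2, 4 and 5, against 0.75 to 1.73 for all other arrays. Mice 2 and 4 differed in background. Their negative-control medians were 4.79 and 4.69, against 4.44 to 4.59 in the other mice of that group, 4.34 to 4.52 under PM2.5, 4.45 to 4.54 under metformin and 4.36 to 4.43 in filtered air. The summed log2 signal of 7 macrophage markers was 11.07 to 14.76 in the combined group, 14.02 to 14.75 under PM2.5, 13.11 to 13.60 under metformin and 13.58 to 14.67 in filtered air. Of these 7 markers, 5 fell in the combined group against PM2.5 and 4 against filtered air. Of all genes, 4.73% fell in the combined group against PM2.5 and 16.2% against filtered air. The sum of 8 endothelial markers was 12.24 to 13.51 in the combined group, 13.36 to 13.82 under PM2.5, 12.99 to 13.47 under metformin and 13.33 to 13.80 in filtered air, and 5 of the 8 fell in the combined group against PM2.5 and 2 against filtered air. Against filtered air, 3 of 7 tested stellate cell markers fell and 1 rose in the combined group, and 2 of 4 tested adipocyte markers fell. In that comparison 34.9% of all genes passed and 16.2% fell. Under metformin alone, 2 of the 8 endothelial markers fell against filtered air, where 1.89% of all genes fell. Under PM2.5 alone, 1 of the 8 endothelial markers rose and 1 of 4 tested adipocyte markers fell against filtered air, where 5.17% of all genes passed. The part of these markers in the results of the treated groups was not tested. Results described for the combined group are also given without mice 2 and 4, or with the negative-control median as a covariate, where either ends a call. Leaving out mouse 5 ended 1 call among the members, that of Gpam against metformin.

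Gpam, the mitochondrial enzyme that starts the pathway and prefers saturated acyl chains, was lower in all 3 treated groups than in filtered air. Its log2 signal was 15.53, 15.52, 15, 15.12 and 15.60 in combined mice 1 to 5, and 14.82, 15.04, 15.14, 15.53 and 15.91 under PM2.5. It was 14.78, 14.82, 14.67, 15.24 and 13.93 under metformin, against 16.14, 16.04, 16.47, 16.44 and 16.85 in filtered air. No mouse of any treated group reached the lowest mouse in filtered air, while the 3 treated groups overlapped each other.

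Group means of Gpam were 15.36 ± 0.28 in the combined group, 15.29 ± 0.43 under PM2.5, 14.69 ± 0.48 under metformin and 16.39 ± 0.32 in filtered air (SD, n = 5 each). Under PM2.5 it fell by 1.10 ± 0.23 on the log2 scale, a 2.14-fold lower signal (limma adjusted p = 0.00797). It was the sole gene of the 9 tested to pass there, where 5.17% of all genes passed, 2.5% fell and 3.39% were lower with no overlap between groups. Under metformin alone it fell by 1.70 ± 0.23, a 3.25-fold lower signal (limma adjusted p = 0.000186), and again no other of the 9 genes passed. In that comparison 3.15% of all genes passed and 1.89% fell. In the combined group the difference from filtered air was -1.03 ± 0.23, a 2.05-fold lower signal (limma adjusted p = 0.00149). These 3 falls, which share the filtered-air mice, kept an adjusted p under 0.05 in all 30 alternatives, including each mouse left out in turn.

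On average, Gpam was no lower in combined mice than under either agent alone. Its differences from filtered air under PM2.5 and under metformin add up to -2.80, against the -1.03 measured in the combined group. The interaction, the effect of metformin among PM2.5 mice less its effect among mice without particles, was 1.77 ± 0.32 (95% confidence interval 1.10 to 2.44, limma adjusted p = 0.0224). For it, the metformin group, whose label names no air, was taken as not exposed to PM2.5. Of all genes, 0.186% passed for the interaction and 0.16% did so with a positive sign, and of the 9 genes here Gpam alone did. Leaving out metformin mouse 3 (adjusted p = 0.0564), PM2.5 mouse 1 (0.0702) or 2 (0.0557), or mouse 5 in filtered air (0.0515) ended the call, as did leaving out combined mice 2 and 4 together (1.79, adjusted p = 0.0621). The estimate lay between 1.58 and 1.93 in all 29 alternatives run for it.

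Ordered by mean, Gpam was highest in filtered air, then in the combined group, under PM2.5 and under metformin. The combined group and PM2.5, neighbours in that order, differed by 0.07 (95% confidence interval -0.40 to 0.54, limma adjusted p = 0.887), which leaves room for a difference in either direction. PM2.5 was above metformin by 0.60 ± 0.23 without passing (limma adjusted p = 0.187, a comparison added after the values were seen). Combined mice were above metformin mice by 0.67 ± 0.23 (limma adjusted p = 0.0474), where 16.3% of all genes passed and 9.69% rose. That call was lost on leaving out any 1 of 14 mice (filtered-air mice 1, 3 and 4, metformin mice 1, 2, 3 and 5, PM2.5 mice 2, 3 and 4, and combined mice 1, 2, 4 and 5), with adjusted p between 0.0518 and 0.147, and without combined mice 2 and 4 together (0.69, adjusted p = 0.14) or with the covariate (0.62, adjusted p = 0.122).

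**Figure D1:**
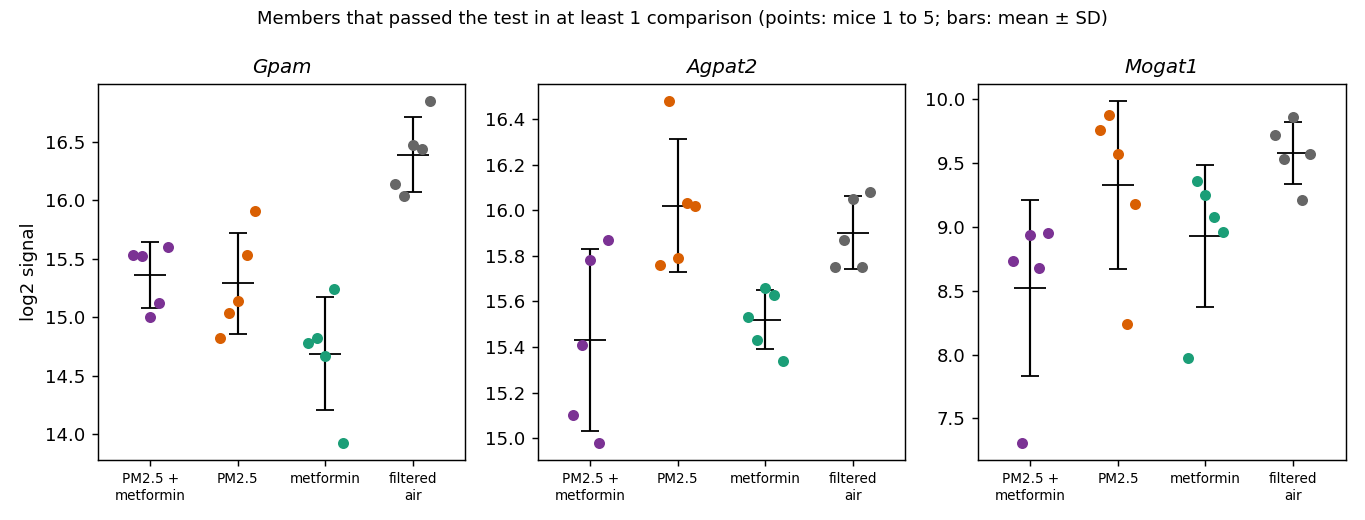
Log2 signal (vertical axis) of Gpam, Agpat2 and Mogat1 in each mouse, with the combined group, PM2.5, metformin and filtered air from left to right. Points are mice and bars show the group mean with its SD (n = 5). All 15 treated mice lie below all 5 filtered-air mice for Gpam, while combined mouse 2 is the lowest point for Mogat1 at 7.31.

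The promoter of Gpam is shown because the gene moved in every comparison with filtered air, and those of Agpat2 and Mogat1 because they are the other members that fell. Gpam has another listed start site, whose window (chr19:55099478-55099727) held no match and is not shown. In mouse cells, sterol regulatory element-binding proteins and the CCAAT-binding factor NF-Y are known to act on the Gpam promoter. The sequences are the 250 bases before the start site, from RefSeq on GRCm38.p6. The set of promoter windows used here held 13 start sites for 8 of the 10 genes and none for Dgat1 and Dgat2. Capitals mark matches to any of 5 motifs, searched on both strands.
Gpam (chr19:55127239-55127488, minus strand): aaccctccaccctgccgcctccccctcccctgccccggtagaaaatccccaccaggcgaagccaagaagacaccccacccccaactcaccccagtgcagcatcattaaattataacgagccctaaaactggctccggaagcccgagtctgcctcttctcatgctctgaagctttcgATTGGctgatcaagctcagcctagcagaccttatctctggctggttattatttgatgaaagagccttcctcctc
Agpat2 (chr2:26604418-26604667, minus strand): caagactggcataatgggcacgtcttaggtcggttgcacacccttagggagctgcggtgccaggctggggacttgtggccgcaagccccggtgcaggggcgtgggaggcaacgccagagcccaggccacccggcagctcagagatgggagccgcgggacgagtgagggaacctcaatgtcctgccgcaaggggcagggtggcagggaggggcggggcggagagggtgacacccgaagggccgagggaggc
Mogat1 (chr1:78510810-78511059, plus strand): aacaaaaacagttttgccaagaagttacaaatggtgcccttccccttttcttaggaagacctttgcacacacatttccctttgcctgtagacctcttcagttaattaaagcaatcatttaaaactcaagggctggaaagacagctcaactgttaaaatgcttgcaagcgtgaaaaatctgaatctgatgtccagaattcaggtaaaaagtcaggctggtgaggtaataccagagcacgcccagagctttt

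In Gpam the capitals mark the CCAAT box on the opposite strand, 74 to 70 bases before the start, and 33.8% of all 32851 windows hold those letters. RefSeq's span of Gpam extends upstream of this start site, so the match lies inside the span of the gene. Agpat1 and Lpin2 held CCAAT too, and Lpin2 an E-box (CACGTG, in 6.02% of windows). The letters TCACNCCAC, a sterol regulatory element, matched none of the members' windows and 1.05% of all, a direct repeat of AGGTCA spaced by 1 base (bound by nuclear receptors) none and 0.0335%, and ACANNNTGT (spaced glucocorticoid receptor letters) none and 5.84%. No matches of different motifs overlapped in the members' windows, and a match is a description of letters, not of binding. Near matches were not counted, so a window without a match may still hold similar letters.

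Agpat2 fell in the combined group. It makes phosphatidic acid, and its loss in humans causes congenital generalized lipodystrophy. Its log2 signal was 15.10, 15.41, 15.78, 14.98 and 15.87 in combined mice 1 to 5, and 15.76, 16.48, 15.79, 16.03 and 16.02 under PM2.5. It was 15.53, 15.43, 15.66, 15.63 and 15.34 under metformin, against 15.75, 15.87, 16.05, 15.75 and 16.08 in filtered air. Combined mice 1, 2 and 4 were below every filtered-air mouse and mice 3 and 5 were among them, while all 5 metformin mice were below all filtered-air mice.

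Agpat2 averaged 15.43 ± 0.40 in the combined group, 16.02 ± 0.29 under PM2.5, 15.52 ± 0.13 under metformin and 15.90 ± 0.16 in filtered air (SD, n = 5 each). It fell by 0.47 ± 0.17 in the combined group against filtered air, a 1.39-fold lower signal (limma adjusted p = 0.0348). In that comparison Gpam, Agpat2 and Mogat1, 3 of the 9 genes, fell and none rose. Of all genes, 34.9% passed there, close to the 3 of 9, and 16.2% fell. Against PM2.5 it fell by 0.59 ± 0.17 (limma adjusted p = 0.0291), the sole pass among the 9 genes, where 11.7% of all genes passed and 4.73% fell. Under metformin alone the difference was -0.38 (limma adjusted p = 0.224), with no overlap between the groups, as for Gpam. Of all genes, 3.57% were lower there with no overlap. Under PM2.5 alone it was 0.12 (limma adjusted p = 0.733).

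Both Agpat2 calls depend on single mice. Against filtered air the call ended on leaving out combined mouse 1 (adjusted p = 0.0923), 2 (0.0588) or 4 (0.115) or mouse 2 (0.054), 3 (0.0763) or 5 (0.0784) of filtered air, and in a fit of the compared groups alone (0.0701), and the difference was -0.32 (adjusted p = 0.231) without combined mice 2 and 4 and -0.30 (adjusted p = 0.397) with the covariate. Against PM2.5 it ended on leaving out combined mouse 1 (adjusted p = 0.0638), 2 (0.0604) or 4 (0.105) or PM2.5 mouse 2 (0.0741) or 4 (0.0603), and in the fit of those groups alone (0.109), and the difference was -0.43 (adjusted p = 0.25) without combined mice 2 and 4 and -0.45 (adjusted p = 0.332) with the covariate.

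Agpat1, a widely expressed AGPAT, had its highest mean under metformin. Its log2 signal was 8.40, 8.54, 8.64, 8.57 and 8.37 in the combined group, and 8.21, 8.51, 8.20, 8.25 and 8.46 under PM2.5. It was 8.60, 9.07, 8.79, 9.20 and 8.78 under metformin, against 8.73, 8.58, 8.48, 8.14 and 8.23 in filtered air. In 4 of 5 metformin mice it was above every filtered-air mouse, at values close to the 95th percentile of negative controls. Metformin was above filtered air by 0.45 ± 0.14 without passing (limma adjusted p = 0.0753), a call gained without metformin mouse 1 (0.53, adjusted p = 0.0491). PM2.5 was below metformin, with a difference of -0.56 ± 0.14 (limma adjusted p = 0.045, in the comparison added after the values were seen, where 1.59% of all genes passed). Combined mice were below metformin mice, with a difference of -0.38 without passing (limma adjusted p = 0.0606). Agpat3, which favours polyunsaturated chains, passed in no comparison, with means of 15.98 ± 0.24 in the combined group, 15.92 ± 0.22 under PM2.5, 16.01 ± 0.11 under metformin and 15.76 ± 0.18 in filtered air (SD, n = 5 each).

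None of the lipins, the phosphatidic acid phosphatases, passed. Lpin1, which also acts in the nucleus as a coactivator of fatty acid oxidation genes and is induced by fasting and glucocorticoids, varied more between mice of one group than 98.9% of tested genes (pooled SD 0.83, against a median of 0.29 over all tested genes). Its log2 signal was 10.76, 10.23, 12.29, 11.12 and 10.51 in the combined group, and 11.04, 10.68, 10.21, 11.16 and 11.84 under PM2.5. It was 9.37, 9.43, 11.73, 10.95 and 11.66 under metformin, against 10.30, 10.55, 10.69, 11.47 and 11.79 in filtered air. Metformin mice 1 and 2 were the lowest of all 20 and combined mouse 3 the highest, so the groups overlapped throughout. The interval for PM2.5 against filtered air ran from -0.93 to 0.98 around 0.02 (limma adjusted p = 0.983), so a difference near 2-fold in either direction was not detectable with 5 mice a group.

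Lpin2, a lipin well expressed in liver, averaged 14.52 ± 0.42 in the combined group, 14.32 ± 0.32 under PM2.5, 14.57 ± 0.20 under metformin and 14.25 ± 0.22 in filtered air (SD, n = 5 each). Its largest difference, metformin against filtered air, was 0.31 (limma adjusted p = 0.385). Combined mice were above filtered-air mice by 0.26 (limma adjusted p = 0.295), and by 0.51 (adjusted p = 0.047) without combined mice 2 and 4. Lpin3 was listed between 3.28 and 4.09 over all mice, within background, so no change in it could be measured.

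**Figure D2:**
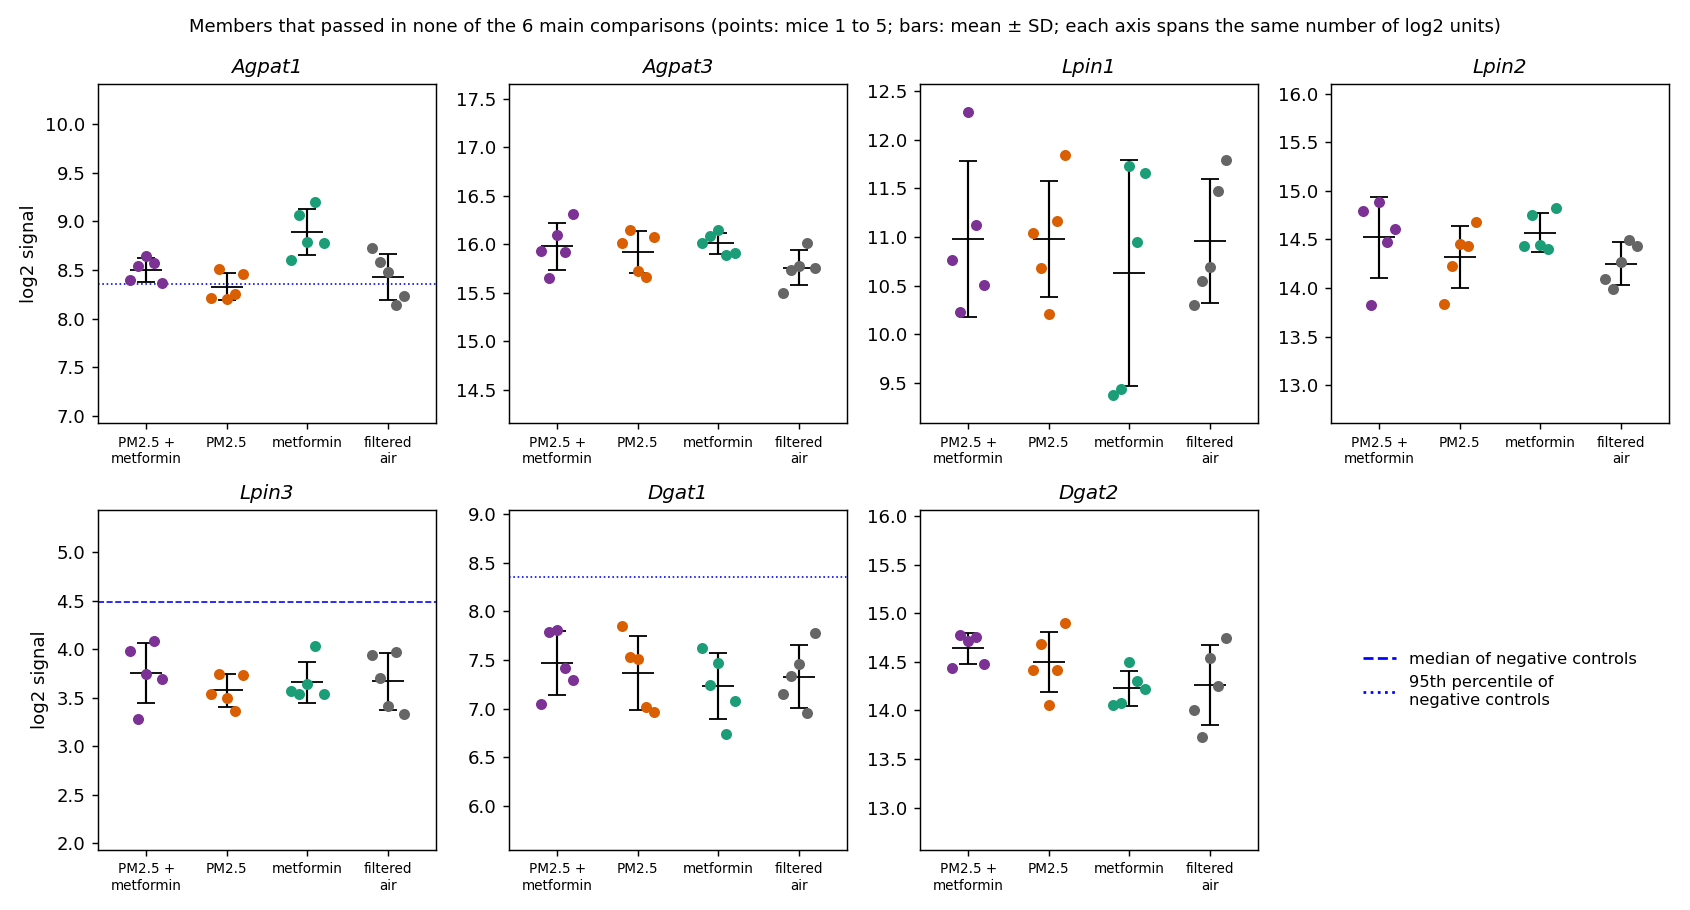
Log2 signal (vertical axis) of the members that passed in none of the 6 main comparisons, drawn per mouse with group means and SD (n = 5), with the combined group, PM2.5, metformin and filtered air from left to right. The dashed line (Lpin3) gives the mean median and the dotted lines (Agpat1, Dgat1) the mean 95th percentile of negative controls. Lpin3 lies below the dashed line in all mice, Dgat1 lies below the dotted line, and Lpin1 has the widest scatter.

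The diacylglycerol acyltransferases close the pathway, Dgat2 using mainly newly made fatty acids in liver and Dgat1 mainly fatty acids from outside the cell. Neither passed in any comparison. Dgat2 was 14.44, 14.78, 14.72, 14.76 and 14.48 in the combined group, and 14.42, 14.68, 14.06, 14.42 and 14.90 under PM2.5. It was 14.06, 14.08, 14.50, 14.30 and 14.22 under metformin, against 14, 13.73, 14.54, 14.25 and 14.75 in filtered air. Filtered-air mice alone spanned most of the range of the other groups. Against filtered air the combined group was higher by 0.38 (95% confidence interval 0.01 to 0.75, limma adjusted p = 0.102), and without filtered-air mouse 5 by 0.51 (adjusted p = 0.0326). Dgat1 averaged 7.47 ± 0.33 in the combined group, 7.37 ± 0.38 under PM2.5, 7.23 ± 0.34 under metformin and 7.33 ± 0.32 in filtered air (SD, n = 5 each), and its largest difference, the combined group against metformin, was 0.24 (limma adjusted p = 0.47).

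Mogat1, the monoacylglycerol acyltransferase known to increase in fatty mouse livers, fell in the combined group. Its log2 signal was 8.73, 7.31, 8.94, 8.68 and 8.95 in combined mice 1 to 5, and 9.76, 9.88, 9.57, 8.24 and 9.18 under PM2.5. It was 7.97, 9.36, 9.25, 9.08 and 8.96 under metformin, against 9.72, 9.53, 9.86, 9.21 and 9.57 in filtered air. All 5 combined mice were below all filtered-air mice, as for Gpam and 9.03% of all genes (lower with no overlap), and mouse 2 was more than 1 log2 unit below the other 4.

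Means of Mogat1 were 8.52 ± 0.69 in the combined group, 9.33 ± 0.66 under PM2.5, 8.93 ± 0.56 under metformin and 9.58 ± 0.24 in filtered air (SD, n = 5 each). It fell by 1.06 ± 0.32 in the combined group against filtered air, a 2.08-fold lower signal (limma adjusted p = 0.0138). The call held without each mouse in turn (adjusted p 0.00644 to 0.0487, the highest without combined mouse 2 at -0.75), but was lost without combined mice 2 and 4 together (-0.70, adjusted p = 0.114) and with the negative-control median as a covariate (-0.69, adjusted p = 0.295). Metformin alone gave -0.65 (limma adjusted p = 0.28) and PM2.5 alone -0.25 (limma adjusted p = 0.693). Combined mice were below PM2.5 mice, with a difference of -0.81 without passing (limma adjusted p = 0.104), and passed without PM2.5 mouse 4 (-1.08, adjusted p = 0.0355). Mogat2, the intestinal enzyme of the same reaction, was at background.

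Across the 9 genes the differences had medians close to those of all tested genes: 0.04 for PM2.5 against filtered air (all genes 0.02), -0.10 for metformin against filtered air (all genes 0) and 0.07 for the combined group against filtered air (all genes 0.01). The combined group differed from PM2.5 by a median of 0.07 (all genes -0.01) and from metformin by -0.03 (all genes 0.02). Of the 9 genes, 6 passed in none of these comparisons nor for the interaction, where the members' median was -0.12 (all genes 0.01).

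**Figure D3:**
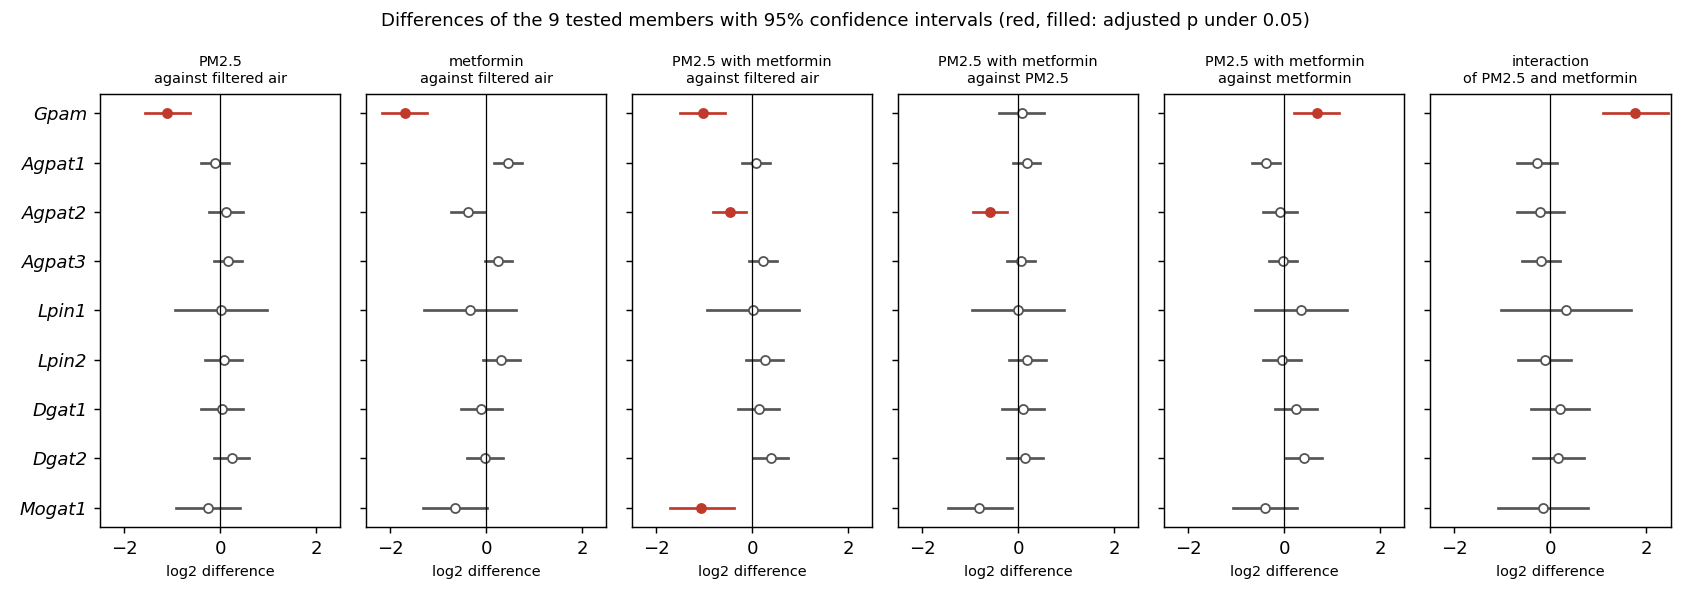
Log2 difference with its 95% confidence interval (horizontal axis) for the 9 tested genes in each comparison, including the interaction. Gpam lies furthest below 0 for PM2.5 and for metformin against filtered air, at -1.10 and -1.70, and furthest above 0 for the interaction at 1.77.

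Genes beside the pathway were counted in lists written from general knowledge. Among 9 tested acyltransferases and phosphatases of the same steps (14 listed), 1 rose under PM2.5, 1 rose under metformin, and 4 rose and 1 fell in the combined group, each against filtered air. Of all genes, 5.17% passed under PM2.5, 3.15% under metformin and 34.9% in the combined group, and the counts of the lists that follow stand beside the same shares. Gpat3 and Gpat4 are the endoplasmic reticulum enzymes that catalyse the same step as Gpam. Gpat3 was 8.51, 8.15, 8.91, 8.35 and 9.07 in the combined group, 8.59, 9.59, 8.69, 8.50 and 8.88 under PM2.5, 8.20, 8.84, 8.33, 8.10 and 8.16 under metformin, and 7.21, 7.88, 7.92, 7.73 and 7.90 in filtered air. Its mean was above that of filtered air in every treated group, opposite in sign to Gpam. Under metformin the difference of 0.60 ± 0.21 did not pass (limma adjusted p = 0.13). No filtered-air mouse exceeded the 95th percentile of its array's negative controls. Gpat3 rose under PM2.5 (1.12 ± 0.21, limma adjusted p = 0.00517) and in the combined group (0.87 ± 0.21, limma adjusted p = 0.0036), in all 30 alternatives.

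Gpat4 was 12.83, 13.91, 12.73, 13.74 and 12.33 in the combined group, 12.55, 12.61, 12.28, 12.15 and 12.20 under PM2.5, 12.63, 12.25, 11.97, 11.94 and 11.83 under metformin, and 12.07, 11.17, 11.73, 11.93 and 11.58 in filtered air. Mice 2 and 4 were the highest of the combined group. The gene rose there by 1.41 ± 0.25 against filtered air (limma adjusted p = 0.000262) and by 0.98 ± 0.25 against metformin (limma adjusted p = 0.0112). Without combined mice 2 and 4 the difference from metformin was 0.51 (adjusted p = 0.165), in a fit of those groups alone it did not pass either (0.0527), and with the negative-control covariate that from filtered air was 0.77 (adjusted p = 0.0598). Plpp1, a lipid phosphate phosphatase, fell in the combined group against filtered air (-0.82 ± 0.19, limma adjusted p = 0.00198) and against PM2.5 (-1.24 ± 0.19, limma adjusted p = 0.000633), though with the covariate the difference from filtered air was -0.42 (adjusted p = 0.206). Plpp3 of the same family rose in the combined group against filtered air (1.00 ± 0.20, limma adjusted p = 0.000563). Lpgat1, a lysophospholipid acyltransferase, rose under metformin (0.80 ± 0.16, limma adjusted p = 0.00921) and in the combined group (0.49, limma adjusted p = 0.0229), the second call ending on leaving out combined mouse 4 (0.0792), mouse 1 (0.065) or 5 (0.0518) of filtered air, or combined mice 2 and 4 together (0.0935), and with the covariate (0.302).

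**Figure D4:**
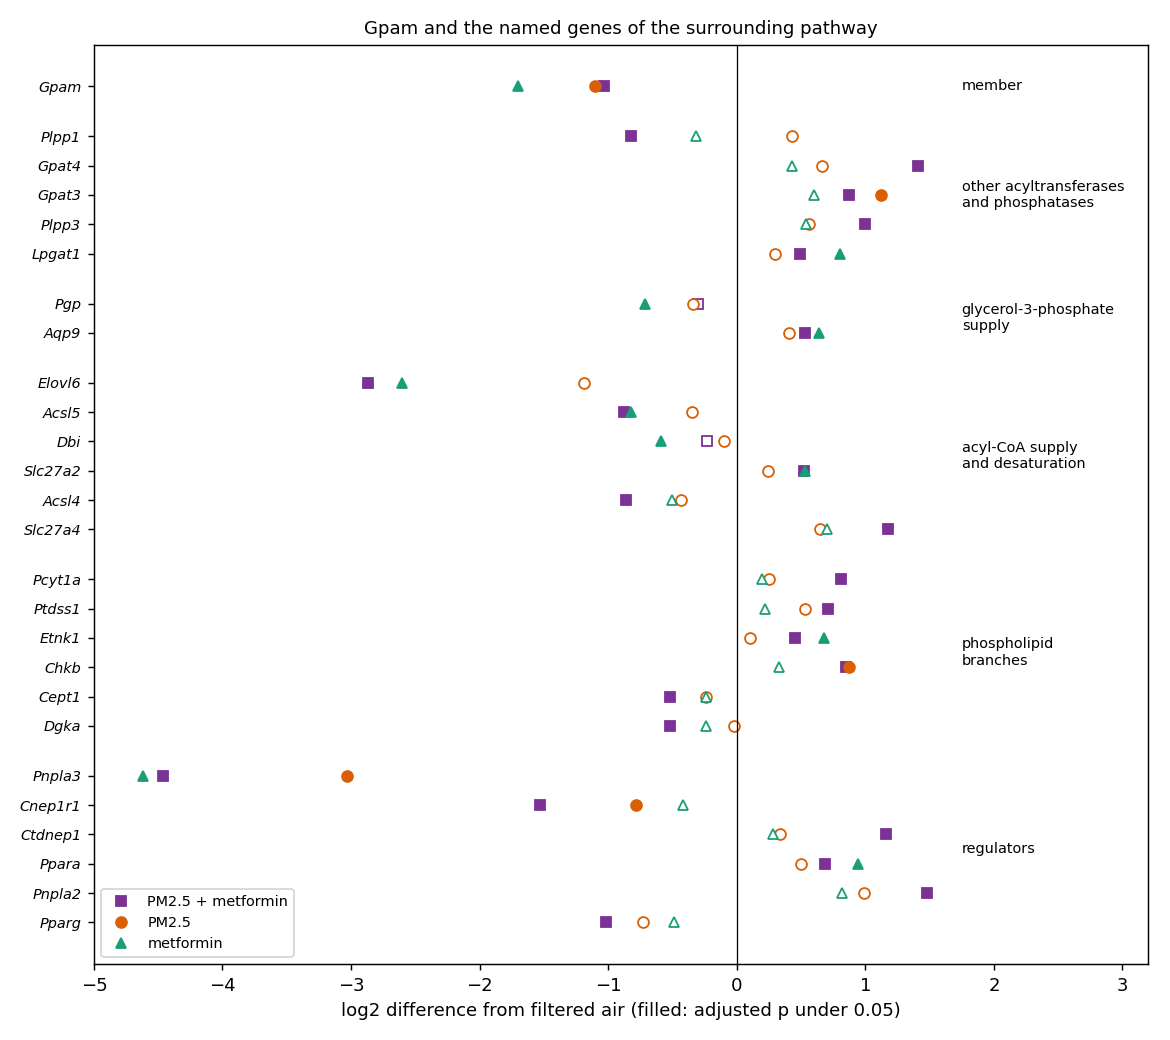
Log2 difference from filtered air (horizontal axis) of Gpam and of the named genes of the surrounding lists, in rows, for the combined group (squares), PM2.5 (circles) and metformin (triangles). Filled symbols passed the test, and Bscl2 and Mlxipl are not drawn. Gpat3 and Gpat4 lie right of 0 and Gpam left of 0 in all 3 comparisons, and Elovl6 lies left of them. The size of the Pnpla3 differences is limited by background in the combined and metformin groups.

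For the supply of glycerol-3-phosphate, 6 of 8 listed genes were tested, and 0 passed under PM2.5, 1 rose and 1 fell under metformin and 1 rose in the combined group. Under metformin, Aqp9, the glycerol channel of hepatocytes, rose (0.64 ± 0.16, limma adjusted p = 0.0297) and Pgp, a phosphatase that can cleave glycerol-3-phosphate, fell (-0.71 ± 0.14, limma adjusted p = 0.00612). Pgp was below the 95th percentile of negative controls on all 20 arrays. The Aqp9 call ended on leaving out metformin mouse 3, 4 or 5 or mouse 1, 2, 3 or 5 of filtered air (adjusted p 0.0535 to 0.086), and in the combined group Aqp9 rose by 0.53 (limma adjusted p = 0.0124).

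Among 10 tested genes of acyl-CoA supply (14 listed), 0 passed under PM2.5, 1 rose and 3 fell under metformin, and 2 rose and 3 fell in the combined group (34.9% of all genes). Elovl6, which lengthens palmitate, fell by 2.87 ± 0.40 in the combined group (limma adjusted p = 3.59e-05) and, under metformin, fell by 2.60 ± 0.40 (limma adjusted p = 0.000877). Acsl5, which activates long-chain fatty acids, fell by 0.88 ± 0.15 in the combined group (limma adjusted p = 0.00016) and, under metformin, fell by 0.82 ± 0.15 (limma adjusted p = 0.00358). Dbi, the acyl-CoA-binding protein, fell under metformin (-0.59 ± 0.12, limma adjusted p = 0.0131). Slc27a2, a very-long-chain acyl-CoA synthetase, rose in the combined group (0.52 ± 0.12, limma adjusted p = 0.00193) and under metformin (0.53, limma adjusted p = 0.0175, lost without metformin mouse 3 at 0.0534 and with the covariate at 0.0665). Acsl4, which prefers arachidonate, fell (-0.86 ± 0.19, limma adjusted p = 0.00175) and the fatty acid transporter Slc27a4 rose (1.18 ± 0.34, limma adjusted p = 0.0107) in the combined group. With the negative-control covariate the combined-group calls of Acsl4 (adjusted p = 0.0854), Slc27a2 (0.0899) and Slc27a4 (0.206) were lost, and that of Slc27a4, above the 95th percentile of negative controls on 4 arrays, also without combined mice 2 and 4 (0.0501).

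Phosphatidic acid and diacylglycerol also feed phospholipids, and of 20 tested genes of those branches (22 listed) 1 rose under PM2.5, 1 rose under metformin, and 4 rose and 2 fell in the combined group. These shares are close to those of all genes, 5.17%, 3.15% and 34.9%. Pcyt1a, the rate-limiting enzyme of phosphatidylcholine synthesis, rose in the combined group against filtered air (0.81 ± 0.15, limma adjusted p = 0.000283) and against metformin (0.61 ± 0.15, limma adjusted p = 0.00757), the second call ending without combined mice 2 and 4 (0.0673). Ptdss1, a phosphatidylserine synthase, rose against filtered air too (0.71 ± 0.16, limma adjusted p = 0.00166). Chkb, a choline kinase, rose in the combined group (0.85 ± 0.20, limma adjusted p = 0.00286) and under PM2.5 (0.87, limma adjusted p = 0.0167), the PM2.5 call ending on leaving out PM2.5 mouse 2 (0.0593) or 5 (0.0556) or mouse 1 of filtered air (0.0535). Cept1, which makes both phosphatidylcholine and phosphatidylethanolamine, fell in the combined group (-0.52 ± 0.16, limma adjusted p = 0.017), but not without combined mice 2 and 4 (-0.41, adjusted p = 0.124), and with the covariate neither it (-0.24, adjusted p = 0.469) nor Chkb (adjusted p = 0.0973) passed. Dgka, a diacylglycerol kinase, fell there too (-0.52, limma adjusted p = 0.0377). Its call ended on leaving out any 1 of 5 mice, without combined mice 2 and 4 (-0.24, adjusted p = 0.305) and with the covariate (-0.07, adjusted p = 0.851). Etnk1, an ethanolamine kinase, rose under metformin (0.68 ± 0.16, limma adjusted p = 0.0213), a call that ended on leaving out metformin mouse 3 (0.0679) or 4 (0.0566) or mouse 1 of filtered air (0.0679), and with the covariate (0.0837).

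Among 18 tested regulators (20 listed), 1 rose and 2 fell under PM2.5, 1 rose and 2 fell under metformin, and 4 rose and 5 fell in the combined group (34.9% of all genes). Ctdnep1 and Cnep1r1 encode the subunits of the phosphatase that dephosphorylates lipins. In the combined group Ctdnep1 rose (1.16 ± 0.18, limma adjusted p = 8.56e-05) while Cnep1r1 fell (-1.53 ± 0.20, limma adjusted p = 1.8e-05), and both also passed against metformin, at 0.89 ± 0.18 (limma adjusted p = 0.00323) and -1.11 ± 0.20 (limma adjusted p = 0.00125). Ctdnep1 was below the 95th percentile of negative controls on all 20 arrays, so its differences are those of a dim probe set. Cnep1r1 fell under PM2.5 as well (-0.78 ± 0.20, limma adjusted p = 0.0249), a call that ended on leaving out PM2.5 mouse 2 (0.0959) or 5 (0.0723) or mouse 1 (0.0554), 3 (0.0556) or 5 (0.0597) of filtered air.

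Pnpla3, a lipid droplet protein whose transcript follows lipogenic signals, was low in every treated group. It averaged 3.82 ± 0.70 in the combined group, 5.24 ± 1.15 under PM2.5, 3.65 ± 0.43 under metformin and 8.28 ± 0.62 in filtered air (SD, n = 5 each), and it fell against filtered air in the combined group (limma adjusted p = 1.66e-06), under PM2.5 (limma adjusted p = 0.000785) and under metformin (limma adjusted p = 2.16e-06). Since the combined and metformin means lie below the negative-control median, no fold is given. Ppara, the receptor that switches on fatty acid oxidation, rose under metformin (0.94 ± 0.19, limma adjusted p = 0.00975) and in the combined group (0.69 ± 0.19, limma adjusted p = 0.00823). Pnpla2, the first lipase of triglyceride breakdown, rose in the combined group (1.48 ± 0.31, limma adjusted p = 0.00091), and Pparg, a driver of fat storage genes, fell there (-1.02 ± 0.21, limma adjusted p = 0.00104), both calls being lost with the covariate (0.106 for Pnpla2 and 0.0749 for Pparg). Bscl2 (seipin), chosen after its values were seen as the remaining pass under PM2.5, rose by 0.99 ± 0.23 (limma adjusted p = 0.0165), a call that ended on leaving out PM2.5 mouse 2 (0.0688) or 5 (0.0538) or mouse 1 of filtered air (0.0531). In the combined group Bscl2 also rose, by 1.01 against filtered air (limma adjusted p = 0.00208) and by 0.95 against metformin (limma adjusted p = 0.00893). Mlxipl (ChREBP), the glucose-sensing lipogenic factor and also chosen after its values were seen, fell under metformin (-1.12 ± 0.25, limma adjusted p = 0.0173), a call that ended on leaving out metformin mouse 3 (0.0572) or mouse 1 of filtered air (0.0502). It fell in the combined group as well (-0.80, limma adjusted p = 0.0162), a call lost with the covariate (0.0661).

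The genes whose pattern came closest to each called member were found by the root mean square difference of the 20 log2 deviations from the gene's own filtered-air mean. For Gpam these were Pxdc1 (0.35), Acacb (0.40), which encodes the acetyl-CoA carboxylase of mitochondria, and Slc25a44 (0.43), a mitochondrial carrier, where Gpam itself deviated by 1.19. For Mogat1 they were Slc15a5 (0.34), the carboxylesterase Ces2e (0.37) and Them7 (0.42), where Mogat1 deviated by 0.81. Agpat2 deviated by 0.39, and Lsm4, the fatty acid elongase Elovl5 and Zfp691 lay 0.23 from it. None of the other members was among the 3 closest genes of any of them.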

How the data were processed

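Liver RNA of 20 mice was measured on 1 expression array each. For each probe set the authors deposited a log2 signal, computed in Affymetrix Expression Console per the submitters' processing notes, with version and summary method not given in the sources used here. The array type in the series text does not match the probe set identifiers, and genes were assigned through the platform annotation that lists these identifiers. Controls made up 6640 of the 28846 probe sets, and 19572 of the remaining 22206 had 1 gene. No build is named for the files, so gene coordinates are not given and promoters are on RefSeq's GRCm38.p6.

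The deposited log2 values were used as they are. A filter removed genes whose mean did not exceed log2 4.05, the 40th percentile, and 11844 genes were tested. Group means were fitted with limma 3.58.1 in R 4.3.3 over all 20 arrays, with eBayes (residual degrees of freedom 16, prior 5.68), two-sided tests and Benjamini-Hochberg adjustment within each comparison. Each gene had 1 residual variance, shared by the 4 groups. Simulated data for PM2.5 against filtered air, over 11844 genes, recovered 85 of 100 genes changed by 1 log2 unit and 100 of 100 changed by 2. Among the unchanged genes there were 8 false calls. The simulated noise was normal and independent between genes and arrays, with no outlying arrays, unlike the measured data. Precision is limited by the number of arrays, which carry no read depth.

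The members and lists were chosen with earlier results of these data known. All 10 members are described. From each pathway list, counts are given for all tested genes and up to 6 genes with the lowest p are named among those that passed. Bscl2 and Mlxipl were added to the regulators after their values were seen. For each called member the 3 most alike genes are named, passing over provisional names. The fit was repeated with no filter and with the threshold at the 60th percentile, after median centring and after quantile normalization, with array weights, with probe sets averaged per gene, with trended and robust eBayes, over the compared groups alone, with the negative-control median as a covariate, leaving out combined mice 2 and 4, and leaving out each mouse in turn.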

Additional observations from a re-analysis of the deposited data

Results flagged for a closer look

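For Gpam the fitted interaction was 1.77 (limma adjusted p = 0.0224). That call ended on leaving out PM2.5 mouse 1 or 2, metformin mouse 3 or mouse 5 of filtered air (adjusted p 0.0515 to 0.0702). It also ended without combined mice 2 and 4 together (0.0621). For Pnpla3 the fitted interaction was 3.19 (limma adjusted p = 0.03, and 0.0513 with trended and robust eBayes), a call that ended on leaving out PM2.5 mouse 1 or 2, metformin mouse 2, 3 or 5, or mouse 2, 3 or 5 of filtered air (adjusted p 0.0521 to 0.0799), or combined mice 2 and 4 together (0.0698). Its combined and metformin means, 3.82 and 3.65, lie below the negative-control median of 4.49, a floor that limits the differences entering this value, so that no change in the effect of metformin is read from it.

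Over 39 genes and 4 groups, 12 of 156 sets of 5 mice held a mouse far from the other 4 of its group, where chance gives about 1 in 20. Among the members these were combined mouse 2 for Mogat1 (7.31, the others 8.68 to 8.95) and metformin mouse 4 for Lpin3 (4.03, at background). Metformin mouse 1 stood apart for Dbi (16.21), Acsl4 (12.55) and Bscl2 (9.13), mouse 3 for Slc27a4 (8.86) and Pnpla2 (12.35), and mouse 2 for Dgka (9.58). Combined mouse 4 stood apart for Insig1 (12.76), PM2.5 mouse 4 for Lpgat1 (13.16), filtered-air mouse 1 for Gpat3 (7.21) and filtered-air mouse 5 for Ptdss1 (10.02).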

How the results depend on the processing

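The count of members that passed, with each mouse left out in turn and against filtered air, was 1 to 1 for PM2.5, 1 to 2 for metformin and 2 to 3 for the combined group. It was 0 to 1 for the combined group set against PM2.5 or metformin, and 0 to 1 for the interaction. Against metformin it was 0 in place of 1 with no filter, median centring, array weights, the compared groups alone, the negative-control covariate and without combined mice 2 and 4, and 2 (Gpam and Agpat1) with the filter at the 60th percentile. Against PM2.5 it was 0 with the compared groups alone, the covariate and without those mice, and for the interaction 0 without those mice. Array weights gave 2 (Gpam and Agpat1) for metformin against filtered air, and the covariate left 1 (Gpam) of 3 for the combined group against filtered air. For the combined group against filtered air, Dgat2 passed after quantile normalization (0.48, adjusted p = 0.0467), Agpat2 then did not (-0.40, adjusted p = 0.0595) nor in the fit of the compared groups alone (0.0701), and Lpin2 passed with array weights (adjusted p = 0.0479). The cause was not tested. Of 1611 member values under alternatives, 1556 kept their side of the threshold, 45 lost a call and 9 gained one. In 1 value outside any call the sign changed by more than the standard error of the difference. This was Lpin2 in the combined group against metformin, at -0.05 and at 0.20 without combined mice 2 and 4. Among values with a call, 0 reversed. Of 1734 values of pathway genes, 1578 kept their call, 156 lost it and 0 reversed.

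Over all genes, 612 passed for PM2.5, 373 for metformin and 4136 for the combined group against filtered air, 1383 for combined against PM2.5, 1933 for combined against metformin and 22 for the interaction. Array weights gave 1376 for PM2.5, 854 for metformin and 108 for the interaction. The compared groups alone gave 509 against PM2.5 and 1021 against metformin. The covariate gave 147 for metformin, 1054 for the combined group against filtered air, 79 against PM2.5, 1009 against metformin and 44 for the interaction. Without combined mice 2 and 4 the counts were 938 for PM2.5, 2544 for the combined group against filtered air, 206 against PM2.5, 499 against metformin and 10 for the interaction. With each mouse left out they ran over 208 to 759, 157 to 487, 3394 to 4338, 637 to 2143, 1138 to 2407 and 7 to 289, in the first order. Without combined mouse 5, 289 passed for the interaction and 2143 against PM2.5, where 753 did without mouse 2 and 637 without mouse 4.

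No paired analysis was possible because the labels give no replicate numbers that link mice between groups.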
